A study of Rattus norvegicus with 11 samples.

Results

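The 10 genes described here, Gfap, Vim, Nes, Serpina3n, Cd44, S1pr3, Steap4, Emp1, Cd109 and Ptx3, are widely used markers of the reactive state of astrocytes. They were chosen by gene symbol from a table of 30560 rat genes, each symbol matched 1 row, and all 10 passed the filter on low counts that left 15742 genes for testing. RNA was measured in the striatum of 11 adult male Sprague-Dawley rats, with 1 library per rat. Of these, 9 were at day 3 after intracerebral hemorrhage (ICH), and 2 were Normal rats, also labelled day 3. The 3 IC rats received 0.2 U of bacterial collagenase VII-S in 1.0 μL of saline in the right striatum, which gives a mild hemorrhage, and the 3 IS rats received 0.6 U in 3.0 μL, which gives a severe hemorrhage. The 3 IS-HA rats received the IS dose and had 150 μL of the hematoma aspirated through a catheter at 6 h. The 2 Normal rats had neither injection nor aspiration, so the effect of the hemorrhage and that of the needle, the saline and the enzyme itself cannot be told apart in any comparison with them. The tissue of the injected rats was the ipsilateral striatum, and p-values measure the spread between the 11 rats.

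Astrocytes answer injury of the brain by enlarging, by building up cytoplasmic intermediate filaments and by switching on a set of secreted and surface proteins, a state called reactive astrogliosis. After a hemorrhage, reactive astrocytes gather around the hematoma and take part in forming the border between damaged and spared tissue. Cytokines of the interleukin-6 family act on this state through the transcription factor STAT3. Several of the 10 genes are not particular to astrocytes, since Vim, Cd44, Emp1 and Ptx3 are also used by myeloid cells, vascular cells or fibroblasts.

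Counts assigned to genes ranged from 6701301 in IS-HA replicate 2 to 18817645 in IC replicate 3, and the floor of 3 counts stood at 0.448 CPM (counts relative to library size) in the smallest library and at 0.159 in the largest. The libraries carried no molecular identifiers, so reads may be copies of 1 molecule and such floors and counting intervals cover counting error only. Levels are given as TPM, transcript abundances that account for gene length and sum to the same total in each rat. Fold changes come from a quasi-likelihood model of the counts in edgeR that was fitted to all 4 groups together. P-values were adjusted by Benjamini-Hochberg for the 15742 genes, and a gene was called where the adjusted p was under 0.05 and the log2 fold change at least 1 either way. Each log2 fold change is followed by its approximate standard error (SE). Transcripts used as markers of striatal neurons and of astrocytes were present in the Normal rats. The summed TPM of 10 striatal neuron genes was 7884 and 7935 there, and that of 15 homeostatic astrocyte genes 6320 and 6879. No gene of either list was at 0 in every rat.

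All 10 genes rose in all 3 injected groups. In IC against Normal 10 of 10 were called higher, where 10.9% of all tested genes were called higher and 2.66% lower. In IS against Normal 10 of 10 were called higher, against a background of 18.8% higher and 17% lower. In IS-HA against Normal 10 of 10 were called higher, against 15.1% higher and 7.71% lower. The median log2 fold change of the 10 genes was 3.27 in IC, 4.21 in IS and 3.25 in IS-HA, beside medians of 0.003, 0.018 and 0.056 over all tested genes. Every injected rat stood above both Normal rats for each of the 10 genes, which held for 27.1% of all tested genes. The smallest gap was that of Steap4, whose lowest injected rat was 1.63 times the higher Normal rat, and the widest that of Serpina3n, at 76.4 times. In tissue RNA of this kind, more cells of a type and more RNA per cell cannot be told apart.

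**Figure D1:**
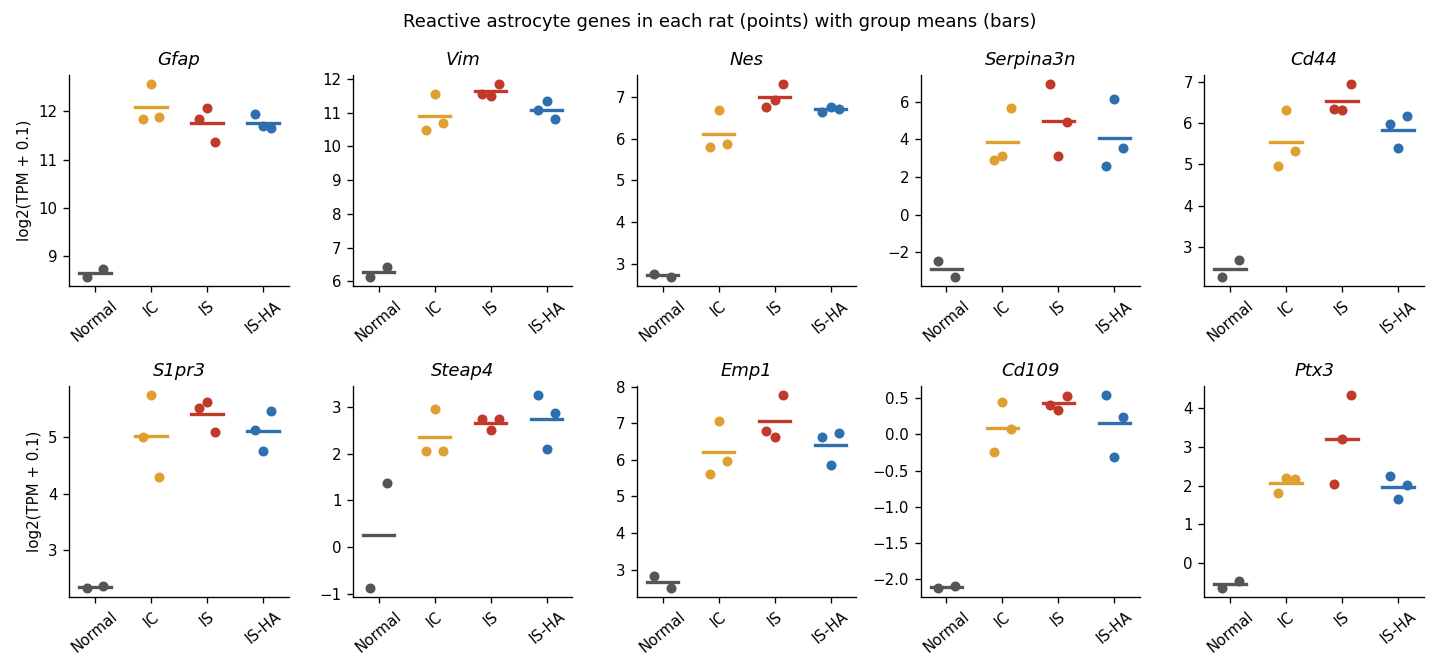
Level of each of the 10 genes in each rat, as log2(TPM + 0.1), by group (Normal, IC, IS, IS-HA), where points are rats and bars are group means. All injected rats lie above both Normal rats in every panel, while the 3 injected groups overlap in most panels and Serpina3n is spread widely within each of them.

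The first group of genes encodes intermediate filament proteins. Gfap, the filament protein that defines astrocytes in histology, was the most abundant of the 10. Its level was 377 and 425 TPM in Normal replicates 1 and 3. It was 3650, 6048 and 3755 TPM in IC replicates 2, 3 and 4, 3669, 4334 and 2633 TPM in IS replicates 2, 3 and 4, and 3925, 3301 and 3223 TPM in IS-HA replicates 1, 2 and 3. The injected groups overlapped, with both the highest rat, IC replicate 3, and the lowest, IS replicate 4, far above Normal. Among all genes ranked by TPM in each rat, Gfap stood at place 218 and 188 in the Normal rats and between places 13 and 29 in the injected rats. The log2 fold change against Normal was 3.42 (SE 0.32, adjusted p 0.000122) in IC, 3.15 (SE 0.31, adjusted p 5.96e-05) in IS and 3.11 (SE 0.31, adjusted p 0.000108) in IS-HA. By group mean the order was IC, IS, IS-HA and Normal, and only the step to Normal was free of overlap.

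Vim encodes vimentin, the filament protein of mesenchymal cells and of immature and reactive astrocytes. Its level was 70.1 and 85.2 TPM in Normal, 1427, 2970 and 1665 TPM in IC, 3027, 2887 and 3649 TPM in IS and 2172, 2585 and 1790 TPM in IS-HA, with the rats in the same order as for Gfap. In TPM every IS rat was above every IS-HA rat, while IC spanned the range of IS-HA and reached into that of IS. On the CPM scale IS-HA replicate 2 (2461 CPM) stood above IS replicates 2 and 3 (2301 and 2367 CPM). The log2 fold change against Normal was 4.64 (SE 0.42, adjusted p 0.000115) in IC, 5.39 (SE 0.44, adjusted p 3.13e-05) in IS and 4.84 (SE 0.42, adjusted p 7.02e-05) in IS-HA.

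Nes encodes nestin, the filament protein of neural progenitors, which reactive astrocytes switch on again. Its level was 6.67 and 6.32 TPM in Normal, 55.8, 103 and 58.5 TPM in IC, 108, 123 and 158 TPM in IS and 100.4, 108 and 105 TPM in IS-HA. In TPM every IS rat was above all IC and all IS-HA rats, and IS-HA lay within 100.4 to 107.7 TPM. On the CPM scale IS-HA spanned 268 to 372 CPM, and its replicate 2 stood above IS replicates 2 and 3 (299 and 365 CPM). Against Normal the log2 fold change of Nes was 3.41 (SE 0.34, adjusted p 0.000147) in IC, 4.35 (SE 0.35, adjusted p 3.13e-05) in IS and 4.01 (SE 0.35, adjusted p 7.02e-05) in IS-HA.

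The balance between the filament genes differed by group, a measure chosen after the values were seen and given without a test. The ratio of Gfap to Vim in TPM was 4.99 to 5.38 in Normal, 2.04 to 2.56 in IC, 0.72 to 1.50 in IS and 1.28 to 1.81 in IS-HA. Normal and IC were each separate from all other rats, while IS and IS-HA overlapped. The ratio of Gfap to Nes was 61.9 ± 7.57 (SD, n = 2) in Normal and 62.8 ± 3.58 (SD, n = 3) in IC, against 28.6 ± 10.3 (SD, n = 3) in IS and 33.5 ± 4.84 (SD, n = 3) in IS-HA. For Gfap and Nes the IC mean lay within the range of Normal, and every rat of the higher dose, aspirated or not, was below every Normal and IC rat. Gfap made up 79.9% and 79.2% of the summed TPM of the 10 genes in the Normal rats, 64.3% to 69.4% in IC, 38.3% to 57.1% in IS and 53.3% to 61.2% in IS-HA.

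**Figure D2:**
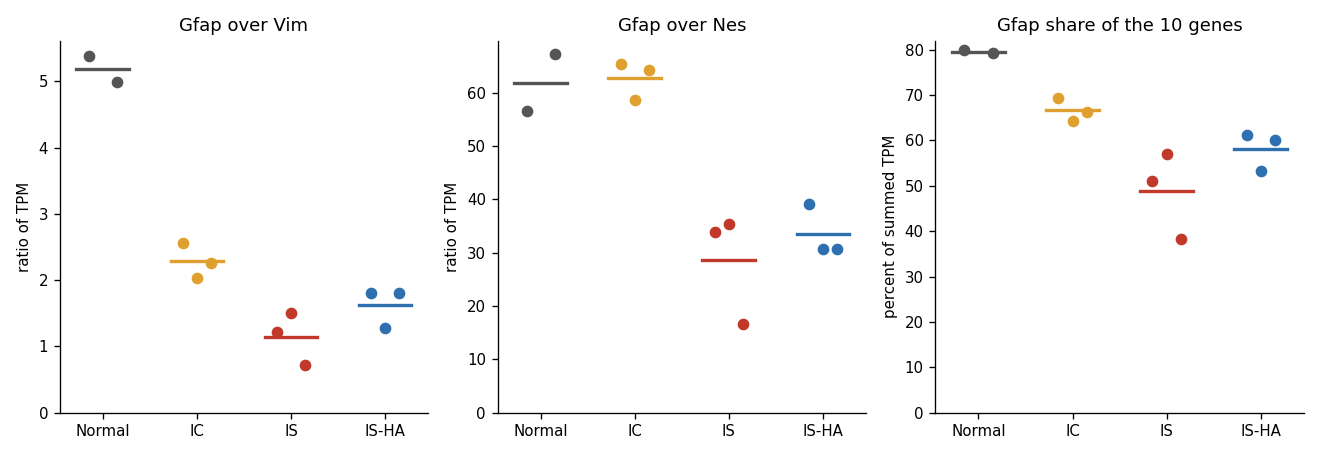
Ratio of Gfap to Vim TPM, ratio of Gfap to Nes TPM and percent of the summed TPM of the 10 genes held by Gfap, in each rat, with bars at the group means. The ratio of Gfap to Vim falls from 4.99 to 5.38 in Normal to 0.72 to 1.50 in IS, and IS replicate 4 has the lowest value in all 3 panels.

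Other genes of intermediate filaments did not move as one. Of 9 such genes, 2 were called higher and 1 lower in IC against Normal, 3 higher and 4 lower in IS, and 3 higher and 0 lower in IS-HA, with medians of 0.05, 0.14 and -0.14 on the log2 scale. Des, which encodes the muscle filament protein desmin, had a log2 fold change of 3.56 (SE 0.65, adjusted p 0.00157) in IS, from 2.59 to 2.92 TPM in Normal to 24.9 to 43.7 TPM. Lmna, which encodes lamins A and C of the nuclear envelope, had 2.22 (SE 0.40, adjusted p 0.00139) in IS. The 4 genes that fell in IS encode neuronal filament proteins, with Nefl, the neurofilament light chain, at -2.13 (SE 0.56, adjusted p 0.00992) and Nefm, the medium chain, at -1.76 (SE 0.39, adjusted p 0.00433).

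The secreted members of the set are Serpina3n, an inhibitor of serine proteases, and Ptx3, the long pentraxin, a soluble pattern recognition protein. Serpina3n was near absent in Normal, with 2 and 0 counts (0.078 and 0 TPM). It reached 7.27, 8.51 and 50.5 TPM in IC, 122, 8.75 and 30.6 TPM in IS and 5.96, 70.9 and 11.5 TPM in IS-HA. Each injected group thus held rats that differed several fold among themselves, and the groups overlapped over nearly their whole range. With so few counts in Normal, the fitted fold depends on the prior count, and the ratio of pooled counts per library size was 454 in IC (95% counting interval 125 to 3752), 1409 in IS (389.7 to 11640) and 564 in IS-HA (156 to 4666). The adjusted p of edgeR's test was 0.0295 in IC, 0.00649 in IS and 0.0149 in IS-HA. The call in IC was lost without IC replicate 4 (adjusted p 0.0653), without Normal replicate 1 (0.127) and without Normal replicate 3 (0.217). The call in IS-HA was lost without either Normal rat (adjusted p 0.0797 and 0.123), and that in IS without Normal replicate 3 (0.0636).

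Ptx3 stood at 0.541 and 0.622 TPM in Normal, at 3.43, 4.46 and 4.42 TPM in IC, at 4.01, 9.15 and 20.2 TPM in IS and at 4.61, 3.04 and 3.97 TPM in IS-HA. IS replicate 4 was the highest rat, and the lowest IS rat lay within the range of IC and IS-HA. Against Normal the log2 fold change of Ptx3 was 2.74 (SE 0.67, adjusted p 0.0183) in IC, 4.28 (SE 0.69, adjusted p 0.000784) in IS and 2.69 (SE 0.68, adjusted p 0.0133) in IS-HA. Normal held only 8 and 9 counts, and without either Normal rat the call was lost in IC (adjusted p 0.104 and 0.144) and in IS-HA (0.0772 and 0.0999), and in IC also without IC replicate 3 (0.05001).

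The surface receptors are Cd44, the receptor for hyaluronan and osteopontin, and S1pr3, a G protein-coupled receptor for sphingosine 1-phosphate. Cd44 stood at 4.72 and 6.27 TPM in Normal, at 31.2, 80.2 and 39.8 TPM in IC, at 81.7, 79.2 and 123 TPM in IS and at 62.8, 41.8 and 71.8 TPM in IS-HA. Every IS rat was above every IS-HA rat, and in TPM only IC replicate 3 reached the level of IS. On the CPM scale IC replicate 3 (142 CPM) was below the lowest IS rat, replicate 2 (149 CPM). The log2 fold change against Normal was 3.13 (SE 0.41, adjusted p 0.000585) in IC, 4.14 (SE 0.43, adjusted p 7.22e-05) in IS and 3.39 (SE 0.41, adjusted p 0.000299) in IS-HA.

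S1pr3 stood at 4.98 and 5.09 TPM in Normal, at 32.0, 52.9 and 19.4 TPM in IC, at 45.0, 48.7 and 33.9 TPM in IS and at 34.7, 26.7 and 43.9 TPM in IS-HA. IC held both the highest and the lowest injected rat, so that the order IS, IS-HA and IC of the means lay within overlapping ranges. For S1pr3 the log2 fold change against Normal was 2.70 (SE 0.34, adjusted p 0.000466) in IC, 3.09 (SE 0.35, adjusted p 0.000104) in IS and 2.77 (SE 0.34, adjusted p 0.000305) in IS-HA.

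The remaining membrane proteins are Emp1, a tetraspan protein related to peripheral myelin protein, Steap4, a metalloreductase that reduces iron and copper, and Cd109, a surface protein of the alpha-2-macroglobulin family that binds TGF-beta. Emp1 stood at 6.94 and 5.58 TPM in Normal, at 48.5, 133 and 62.5 TPM in IC, at 111, 97.9 and 218 TPM in IS and at 99.3, 57.6 and 105 TPM in IS-HA. IS replicate 4 was the highest rat, and in TPM the groups of injected rats overlapped. Against Normal, Emp1 had a log2 fold change of 3.62 (SE 0.52, adjusted p 0.000973) in IC, 4.54 (SE 0.55, adjusted p 0.000157) in IS and 3.75 (SE 0.53, adjusted p 0.000628) in IS-HA.

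Steap4 had the smallest rise of the 10, and apart from Serpina3n its Normal rats differed most from each other relative to their level, at 0.448 and 2.48 TPM. It stood at 4.05, 7.67 and 4.08 TPM in IC, at 6.58, 5.55 and 6.57 TPM in IS and at 9.44, 4.20 and 7.22 TPM in IS-HA, the only one of the 10 with its highest mean in IS-HA, although all injected groups overlapped. Steap4 had a log2 fold change against Normal of 1.82 (SE 0.54, adjusted p 0.0418) in IC, 2.14 (SE 0.55, adjusted p 0.00904) in IS and 2.24 (SE 0.55, adjusted p 0.0122) in IS-HA. The call in IC was lost without any one of Normal replicate 1 (1.08, adjusted p 0.162), IC replicate 3 (0.143), IC replicate 4 (0.0742), IS replicate 2 (0.0559), IS replicate 3 (0.0584) and IS-HA replicate 3 (0.0580). The call in IS-HA was lost without Normal replicate 1 (1.51, adjusted p 0.0518) and when only IS-HA and Normal rats were fitted (0.0738).

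Cd109 was the least abundant in the injected rats, with 5 counts in each Normal rat (0.131 and 0.134 TPM) and 12 to 52 counts in the injected rats. It stood at 0.741, 1.26 and 0.954 TPM in IC, at 1.22, 1.17 and 1.35 TPM in IS and at 1.35, 0.706 and 1.08 TPM in IS-HA. In TPM the 3 groups overlapped. Cd109 had a log2 fold change against Normal of 2.80 (SE 0.42, adjusted p 0.00122) in IC, 3.21 (SE 0.43, adjusted p 0.000269) in IS and 2.92 (SE 0.43, adjusted p 0.000763) in IS-HA. On the log2(TPM + 1) scale of limma, which understates low genes, it was 0.80, 0.99 and 0.84, under the cutoff on the fold.

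The second question of the design was whether the genes differed between the mild and the severe hemorrhage. IS and IC also differed in the dose of enzyme and the volume injected, which cannot be told apart from the severity of the hemorrhage. By edgeR 0 of 10 were called in IS against IC, where 0% of all tested genes were called higher and 0% lower. Without adjustment, 5 of 10 had a p under 0.05, all with higher levels in IS, as had 10.5% of all tested genes in that direction and 22.2% in either. Of the 5 genes, 2 (Cd44 and Ptx3) also had a log2 fold change of at least 1, as had 3.37% of all tested genes in that direction. With the Wald test of DESeq2 the same 2 genes were called higher, beside 1.74% of all genes tested by it, Cd44 with a log2 fold change of 1.03 (adjusted p 0.0455) and Ptx3 with 1.56 (adjusted p 0.0467), while Nes passed the adjusted p (0.0232) with a fold of 0.95 under the cutoff. The point estimates of 9 of the 10 genes were positive, with a median of 0.83 beside -0.001 over all tested genes. Nes had a log2 fold change of 0.94 (SE 0.26, 95% interval 0.37 to 1.51, adjusted p 0.148), Cd44 1.01 (SE 0.32, 0.31 to 1.71, adjusted p 0.156) and Ptx3 1.53 (SE 0.49, 0.45 to 2.62, adjusted p 0.160). Vim had 0.75 (SE 0.30, 0.08 to 1.41, adjusted p 0.195) and Emp1 0.92 (SE 0.39, 0.05 to 1.79, adjusted p 0.210).

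Gfap was the one gene of the 10 whose point estimate was negative in that comparison, at -0.26 (SE 0.25, 95% interval -0.80 to 0.28, adjusted p 0.508). The estimates of S1pr3, Steap4, Cd109 and Serpina3n were 0.38, 0.32, 0.40 and 1.23, with intervals that included 0. That of Serpina3n (interval -1.27 to 3.74) rested on IS replicate 2 and was -0.10 without it. Nes was the only 1 of the 10 with every IS rat above every IC rat in TPM, a separation that 15.4% of all tested genes showed. On the CPM scale Nes kept it, and Vim and Cd44 were separate as well. Their lowest IS rats stood at 2301 and 149 CPM and their highest IC rats at 2184 and 142 CPM. Cd109 was barely separate there (2.623 and 2.62 CPM). The share of all tested genes on the CPM scale was not computed. Without IS-HA replicate 2, the smallest library, Nes kept a log2 fold change of 0.94 with an adjusted p of 0.0349, again under the cutoff on the fold, and none of the 10 was called.

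The third question was whether aspiration changed these genes. The IS-HA rats were also anesthetized again and had a catheter passed, which cannot be told apart from the removal of blood. By edgeR 0 of 10 were called in IS-HA against IS, where 0.00635% of all tested genes were called higher, a single gene, and 0% lower, and DESeq2 also called 0 of the 10. Without adjustment 2 of 10, Cd44 and Ptx3, had a p under 0.05, both with lower levels in IS-HA, as had 3.36% of all tested genes in that direction and 8.94% in either. Of the 2 genes 1, Ptx3, also had a log2 fold change of -1 or less, a combination that 0.908% of all tested genes showed. The point estimates of 9 genes were negative, with a median of -0.44 beside 0.05 over all genes. In TPM, Vim, Nes and Cd44 had every IS-HA rat below every IS rat, 3 of 10 where 6.37% of all tested genes did. This depended on the scale. In CPM, Cd44 kept the separation, while for Vim and Nes IS-HA replicate 2 stood above IS replicates 2 and 3. Emp1 was separate in CPM alone (119 to 282 CPM in IS, 81.6 to 114.5 CPM in IS-HA). The log2 fold change was -1.58 for Ptx3 (SE 0.50, 95% interval -2.69 to -0.48, adjusted p 0.540), -0.75 for Cd44 (SE 0.32, -1.45 to -0.05, adjusted p 0.550) and -0.55 for Vim (SE 0.30, -1.21 to 0.12, adjusted p 0.583). For Emp1 it was -0.79 (SE 0.39, -1.65 to 0.08), and for Nes -0.34 (SE 0.26, -0.91 to 0.23).

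Gfap had a log2 fold change of -0.04 in IS-HA against IS (SE 0.25, 95% interval -0.58 to 0.50, adjusted p 0.975), which leaves room for a change of about that size either way. Steap4 was the only gene of the 10 with a positive estimate, 0.10 (SE 0.45, interval -0.88 to 1.08). Serpina3n had -0.68 (SE 1.13, interval -3.17 to 1.80), which was 0.65 without IS replicate 2 and -2.74 without IS-HA replicate 2. Without that smallest library the log2 fold changes of Vim and Nes were -0.85 (adjusted p 0.0904) and -0.50 (0.225).

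IS-HA and IC rats, which differed in dose and in aspiration, were also close. By edgeR 0 of 10 genes were called in IS-HA against IC, where 0% of all tested genes were called higher and 0% lower, and DESeq2 called 0 of the 10. Without adjustment 1 gene, Nes, had a p under 0.05, with a higher level in IS-HA, as had 2.59% of all tested genes in that direction and 4.97% in either, and its fold was under the cutoff. The median of the 10 genes was 0.17 and that of all genes 0.03. Nes had the largest estimate, 0.60 (SE 0.26, 95% interval 0.03 to 1.16, adjusted p 0.841), and Gfap had -0.31 (SE 0.25, interval -0.85 to 0.24). The comparisons share the IS or the IC rats, so their estimates are not independent of each other.

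**Figure D3:**
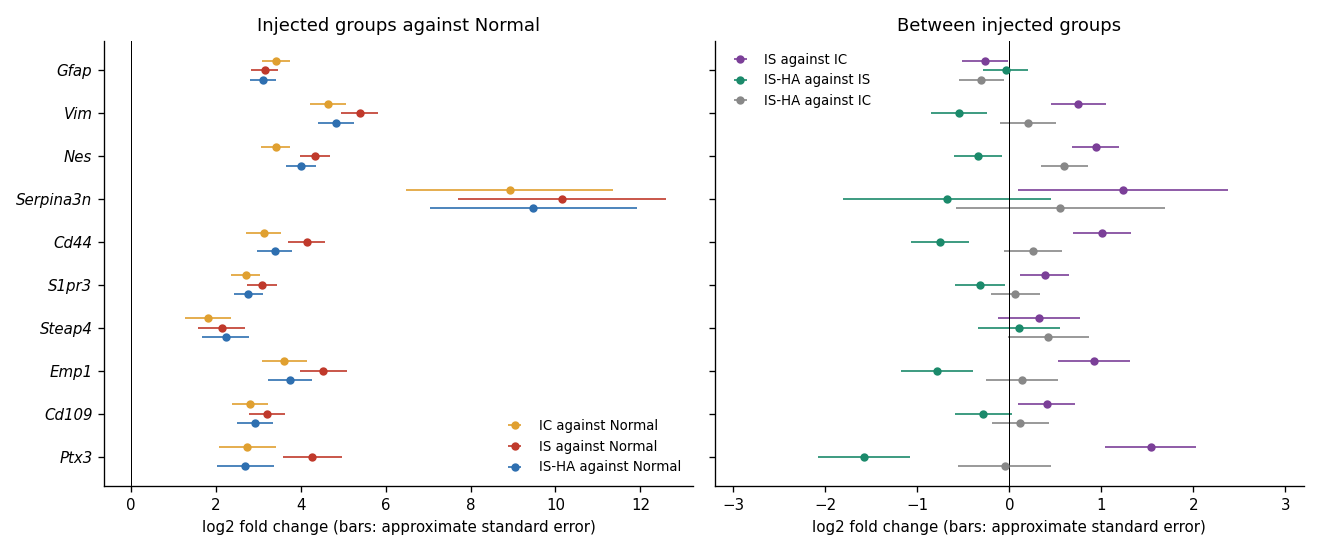
Log2 fold change of each of the 10 genes (x axis) with its approximate standard error (bars), for the injected groups against Normal on the left and between injected groups on the right. On the left all points lie above 0, from 1.82 for Steap4 in IC to 10.16 for Serpina3n in IS, and on the right no gene was called by edgeR, with Ptx3 at 1.53 in IS against IC and at -1.58 in IS-HA against IS.

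Across the 9 injected rats the 10 genes did not rise and fall as 1 unit. These correlations are on log2 CPM, are descriptions over 9 rats that fall into 3 groups and share differences of depth and tissue make-up, and carry no p. Cd44 and Emp1 moved most closely, with a Pearson r of 0.97 and a Spearman rho of 0.93, and r was 0.91 without the 2 rats farthest from the median of Cd44. Vim and Nes had an r of 0.90 and a rho of 0.90, with 0.94 without the 2 farthest rats. Among the 28 pairs without Gfap and Serpina3n the median r was 0.68, with a range of 0.20 to 0.97. Without the 2 rats farthest from the median of the first gene of each pair, the median of these 28 was 0.52 and the range -0.071 to 0.96. Nes and Cd109 went from 0.66 to -0.071 and Emp1 and Ptx3 from 0.77 to 0.13, so that these 2 relations rest on the rats left out. They were not the only pairs to fall, as Nes and Emp1 went from 0.79 to 0.28 and Cd44 and Ptx3 from 0.75 to 0.35. Some pairs rose, such as Cd44 and S1pr3, from 0.61 to 0.96.

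Over all 9 rats Gfap stood apart from the rest, with r between -0.24 and 0.24 for its 9 pairs on log2 CPM. On log2(TPM + 1) the range was -0.40 to 0.43. Without the 2 rats farthest from the median of Gfap it was -0.22 to 0.73, with Ptx3 highest. For the deviations from the group means it was -0.19 (Ptx3) to 0.54 (Vim). With Vim, r was 0.14 over all 9 rats, 0.57 without the 2 rats farthest from the median of Gfap and 0.54 for the deviations from the group means. Serpina3n had r between -0.26 and 0.43. In TPM, IS replicate 4 was highest for Vim, Nes, Cd44, Emp1 and Ptx3, IC replicate 3 for Gfap and S1pr3, IS-HA replicate 1 for Steap4 and Cd109, and IS replicate 2 for Serpina3n. On the CPM scale S1pr3 was highest in IS replicate 3 (86.3 CPM, beside 84.2 in IC replicate 3) and Cd109 in IS replicate 4 (3.30 CPM, beside 2.81 in IS-HA replicate 1).

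**Figure D4:**
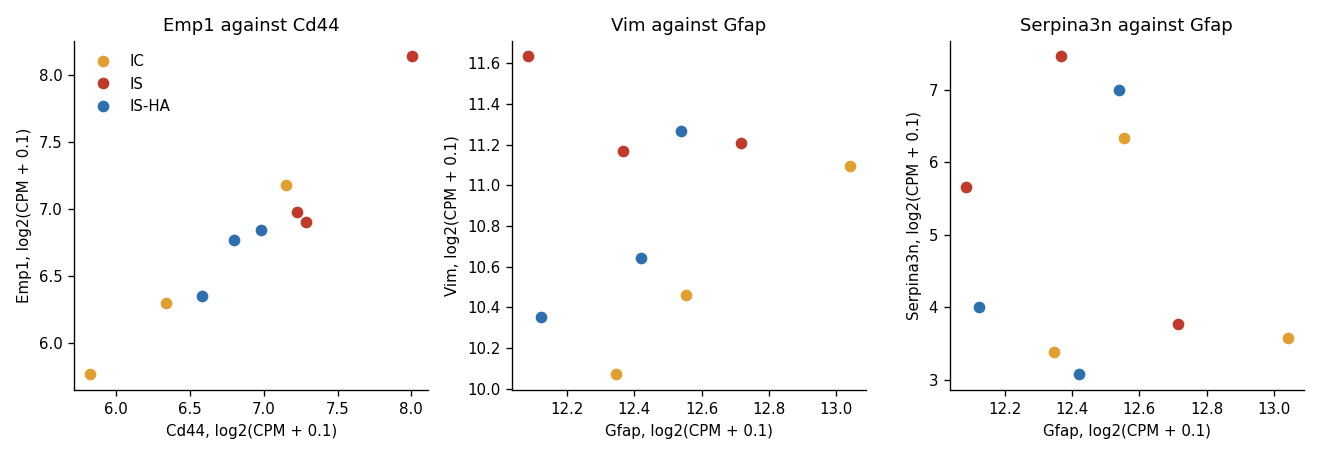
Levels of pairs of genes in the 9 injected rats, as log2(CPM + 0.1), coloured by group. Emp1 follows Cd44 along a line (r 0.97), whereas Vim and Serpina3n show no such line against Gfap (r 0.14 and -0.18).

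The genes whose pattern was most like that of Gfap over the same 9 rats, among 11921 genes with a mean of at least 5 TPM, were Nkd1 (r 0.96 on log2 CPM), Slc14a1 (0.93), S1pr5 (0.88), Col9a3 (0.86) and Myh14 (0.85). On log2(TPM + 1) their r was 0.89 to 0.96. Slc14a1 encodes a urea transporter and S1pr5 another receptor for sphingosine 1-phosphate. Likeness over the injected rats was not a shared rise against Normal. Only Slc14a1 had every injected rat above both Normal rats, with a lowest injected rat of 49.9 TPM beside 28.7 and 23.1 TPM in Normal. Nkd1 stood at 36.8 and 40.1 TPM in Normal and at 20.3 to 30.8 TPM in IS. S1pr5 was not called against Normal, with a log2 fold change of -0.44 in IS. For Col9a3 and Myh14 IS replicate 4 was below both Normal rats. For Serpina3n the genes were Metap1 (0.98), LOC120096383 (0.90) and Eipr1 (0.88), but on log2(TPM + 1) the r of Metap1 was 0.52, so its place rests on the scale, while those of LOC120096383 and Eipr1 were 0.84 and 0.83.

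The upstream sequence of the genes is shown because the cytokines that act on reactive astrocytes signal through STAT3. The 250 bases before the start of 9 of the 10 genes were taken from RefSeq (GRCr8) by symbol, and Cd109 had no entry. They were searched on both strands for the STAT motif TTCNNNGAA and the AP-1 motif TGANTCA. The STAT letters occurred in 3 of 9 genes, Serpina3n, Steap4 and Emp1, beside 7.67% of 33469 promoters of the same length, and the AP-1 letters in 1 of 9, Emp1, beside 6.34%. The upstream sequences of these 3 genes and of Gfap, which held neither, are given 5′ to 3′ on the strand of the gene with the matches in capitals.

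Serpina3n, chr6:129088142-129088391, plus strand: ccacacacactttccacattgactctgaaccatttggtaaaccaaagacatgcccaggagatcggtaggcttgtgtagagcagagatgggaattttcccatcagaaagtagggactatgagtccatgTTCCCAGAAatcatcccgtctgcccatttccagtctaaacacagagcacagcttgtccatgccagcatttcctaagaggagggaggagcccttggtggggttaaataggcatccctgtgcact

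Steap4, chr4:27054770-27055019, minus strand: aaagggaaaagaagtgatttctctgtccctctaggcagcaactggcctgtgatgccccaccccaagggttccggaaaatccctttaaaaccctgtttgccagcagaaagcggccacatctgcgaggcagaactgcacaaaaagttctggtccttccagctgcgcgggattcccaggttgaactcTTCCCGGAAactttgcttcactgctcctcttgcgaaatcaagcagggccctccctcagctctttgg

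Emp1, chr4:169943980-169944229, plus strand: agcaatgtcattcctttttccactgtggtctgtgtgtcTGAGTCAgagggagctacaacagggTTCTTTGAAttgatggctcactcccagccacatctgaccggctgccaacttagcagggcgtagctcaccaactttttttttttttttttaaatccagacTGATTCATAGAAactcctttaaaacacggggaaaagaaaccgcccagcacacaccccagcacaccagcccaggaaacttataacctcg

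Gfap, chr10:88361662-88361911, minus strand: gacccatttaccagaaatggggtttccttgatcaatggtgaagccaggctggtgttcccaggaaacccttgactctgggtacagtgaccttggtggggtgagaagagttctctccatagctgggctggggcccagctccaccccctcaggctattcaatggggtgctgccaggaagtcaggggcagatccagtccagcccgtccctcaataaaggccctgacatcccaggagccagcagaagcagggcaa

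In Serpina3n the match, TTCCCAGAA, began at position -123 from the start, and in Steap4 the match, TTCCCGGAA, at -66. Emp1 held STAT matches at -187 (TTCTTTGAA) and -85 (TTCATAGAA) and AP-1 matches at -212 (TGAGTCA) and -88 (TGATTCA), the last of which overlaps the STAT match at -85. A match describes these letters and neither a bound site nor a cause. Gfap, which also rose, had no match in this window, but sequence outside the window was not searched. Whether STAT3 acts on Gfap or on any other of these genes was not tested. The 3 genes with STAT matches had log2 fold changes in IS from 2.14 for Steap4 to 10.16 for Serpina3n, and the 6 others from 3.09 for S1pr3 to 5.39 for Vim.

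Among genes known to act on astrocyte reactivity upstream, 9 of 18 were called higher and 1 lower in IC against Normal, 9 higher and 2 lower in IS and 10 higher and 0 lower in IS-HA. Their medians were 1.53, 1.85 and 1.69 on the log2 scale. Il6, which encodes interleukin-6, was at 0 TPM in both Normal rats and at 0.869 to 1.71 TPM in IS (adjusted p 0.00032). Socs3, the feedback inhibitor that STAT3 induces, stood at 0.887 to 1.13 TPM in Normal, 25.3 to 60.4 TPM in IC, 86.7 to 111 TPM in IS and 37.7 to 56.5 TPM in IS-HA, with a log2 fold change in IS of 6.57 (adjusted p 3.13e-05). Lifr, which encodes the receptor of leukemia inhibitory factor, had -2.97 in IS (adjusted p 0.00214), and Ednrb, an endothelin receptor, -1.81 (adjusted p 0.0327). Between injected groups edgeR called 0 of the 18. In IS against IC 8 of them had an unadjusted p under 0.05, beside 22.2% of all tested genes. DESeq2 called Socs3, Osm and Il1b higher and Ednrb lower. In IS-HA against IS 7 had an unadjusted p under 0.05, beside 8.94% of all tested genes, and DESeq2 called 0. In IS-HA against IC both counts were 0.

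Other genes that are commonly counted with the reactive state behaved much as the 10 did. Of 7 further genes of general reactivity, 6 were called higher in IC, 6 in IS and 7 in IS-HA, with 0 lower and medians of 4.36, 5.25 and 4.54. Lcn2, which encodes the iron-siderophore binding protein lipocalin-2, had a log2 fold change of 7.42 (adjusted p 3.13e-05) in IS and stood at 1.38 to 1.88 TPM in Normal and 192 to 378 TPM in IS. Timp1, an inhibitor of metalloproteinases, had 6.83 (adjusted p 3.57e-05). The lowest were Osmr, the oncostatin M receptor, at 3.07 (adjusted p 0.000493) and Cxcl10, a chemokine, at 2.14 (adjusted p 0.106), which was not called in IC or IS. In IS-HA Cxcl10 stood at 38.0 TPM in replicate 2, beside 3.85 and 4.87 TPM in replicates 1 and 3, and DESeq2 did not call it there.

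Lists that have been named A1 and A2 for inflammatory and ischemic forms of reactivity both had more genes called higher than lower. Of 9 genes on the A1 list, 6 were called higher and 0 lower in IC, 7 higher and 1 lower in IS, and 7 higher and 0 lower in IS-HA, with medians of 2.26, 1.93 and 1.66. Psmb8, an immunoproteasome subunit, had 4.06 in IS (adjusted p 0.000255) and Serping1, the C1 inhibitor, 3.33 (adjusted p 3.13e-05), whereas Amigo2, an adhesion protein, fell by 1.23 on the log2 scale (adjusted p 0.00263) and Fkbp5, a cochaperone, was at 0.07 (adjusted p 0.787). Of 9 genes on the A2 list that are not among the 10, 4 were called higher in IC, 6 in IS and 6 in IS-HA, with 0 lower and medians of 1.72, 3.19 and 2.52. Cd14, a coreceptor for endotoxin, had 6.68 in IS (adjusted p 3.13e-05) and S100a10, a partner of annexin A2, 5.49 (adjusted p 0.000264), while Clcf1, a cytokine, was at 0.48 (adjusted p 0.274) and Ptgs2, a cyclooxygenase, at -0.52 (adjusted p 0.319). In the paper's staining LMP7, the protein of Psmb8, lay mainly in microglia, and the paper used CD14 as a microglial marker. Which cells carried the rises of these lists was not tested.

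Between injected groups edgeR called 0 of the 9 genes of the A1 list and 0 of the 9 of the A2 list. In IS against IC 8 of 9 on the A1 list had an unadjusted p under 0.05, and DESeq2, which called 4.05% of all genes in either direction, called 2 of them. C3, the central component of complement, was lower in IS, with a log2 fold change in edgeR of -1.12 (SE 0.25, 95% interval -1.68 to -0.56, adjusted p 0.143), and Fbln5, an extracellular matrix protein, was higher, with 1.17 (SE 0.32, adjusted p 0.148). Every IS rat was below every IC rat in TPM for C3 and above for Fbln5. Of the A2 list 4 of 9 had an unadjusted p under 0.05 and DESeq2 called Cd14, Slc10a6 and Tgm1, all higher in IS. In IS-HA against IS 2 genes of each list had an unadjusted p under 0.05, and in IS-HA against IC 2 of the A1 and 3 of the A2 list, with 0 called by DESeq2. Over all 117 listed genes beside the 10, edgeR called 0 between injected groups and DESeq2 called 15 in IS against IC, 9 of them higher, and 0 in IS-HA against IS or IC. An unadjusted p under 0.05 was found for 48 of the 117 in IS against IC, 19 in IS-HA against IS and 14 in IS-HA against IC. The shares over all tested genes, in either direction, were 22.2%, 8.94% and 4.97%.

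Most genes of resting astrocyte function were not called. Of 15 homeostatic astrocyte genes, edgeR called 0 higher and 1 lower in IC, 1 higher and 3 lower in IS, and 1 higher and 2 lower in IS-HA, with medians of 0.0009, -0.59 and -0.18. DESeq2 also called 0 higher and 1 lower in IC, and 3 of the 15 had an unadjusted p under 0.05 there. Glul, which encodes glutamine synthetase, had a log2 fold change of 1.00 (adjusted p 0.00618) in IC, just under the cutoff, 1.09 (adjusted p 0.00148) in IS and 1.05 (adjusted p 0.00336) in IS-HA. Sox9, an astrocyte transcription factor, had 0.68 (adjusted p 0.0441) in IC, 0.42 (adjusted p 0.107) in IS and 0.77 (adjusted p 0.0180) in IS-HA, all under the fold cutoff, with every injected rat above both Normal rats in TPM. Slc1a2, the main glutamate transporter, fell by 3.74 (adjusted p 0.000501) in IS, from 142 and 349 TPM in Normal to 7.71 to 30.1 TPM, and Slc4a4, a bicarbonate transporter, by 3.26 (adjusted p 0.00473). The ratio of Gfap to Aldh1l1, a folate enzyme used as a general astrocyte marker, was 41.7 to 45.3 in Normal, 403 to 530 in IC, 373 to 620 in IS and 294 to 402 in IS-HA. That of Gfap to Sox9 was 25.7 to 30.7 in Normal, 160 to 223 in IC, 163 to 229 in IS and 125 to 165 in IS-HA. Relative to the mean of the homeostatic genes on the log2 CPM scale, Gfap was higher than in Normal by 3.50 ± 0.42 in IC, 4.05 ± 0.37 in IS and 3.49 ± 0.56 in IS-HA (SD, n = 3 each), and Vim by 4.68 ± 0.58, 6.29 ± 0.78 and 5.17 ± 0.84. Without that reference Gfap was higher by 3.39, 3.13 and 3.10, and Vim by 4.57, 5.37 and 4.79. The larger relative value of Gfap in IS thus reflects the lower homeostatic mean there, not a higher Gfap level. Between IS and IC edgeR called 0 of the 15, of which 7 had an unadjusted p under 0.05, beside 22.2% of all tested genes. DESeq2 called Slc1a2, Slc4a4 and Kcnj10, all lower in IS.

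Markers of other cell types moved in the same rats. All 8 myeloid markers were called higher in IC and IS-HA and 7 of 8 in IS, with medians of 2.94, 3.31 and 3.07. Their summed TPM was 158 to 193 in Normal, 1174 to 1712 in IC, 1776 to 3064 in IS and 1445 to 2174 in IS-HA, and none was at 0 in every rat. Cd68, a lysosomal protein of phagocytes, had a log2 fold change of 6.92 (adjusted p 3.64e-05) and Tyrobp, a signaling adaptor, 5.41 (adjusted p 0.000163) in IS. The smallest rises in IS were those of Cx3cr1, at 1.71 (adjusted p 0.00018), and P2ry12, at 0.47 (adjusted p 0.19), both receptors of resting microglia. IS replicate 4, the highest rat in TPM for Vim, Nes, Cd44, Emp1 and Ptx3, had the highest myeloid sum and the lowest sums of homeostatic astrocyte genes (3690 TPM) and striatal neuron genes (1543 TPM). The part of the myeloid cells in the rise of Vim, Cd44, Emp1 and Ptx3 was not tested.

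By edgeR and by DESeq2 0 of 6 endothelial markers were called in any injected group against Normal, with medians of 0.28, 0.37 and 0.23 and a summed TPM of 108 to 149 in Normal and 162 to 215 in the injected rats. An unadjusted p under 0.05 was found for 0 of the 6 in IC, 4 in IS and 2 in IS-HA. In IS the highest was Cldn5, a tight junction protein, at 0.84, and the lowest Flt1, a receptor of vascular endothelial growth factor, at -0.58. Of 6 mural and fibroblast markers, 3 (Col1a1, Dcn and Lum) were called higher in every injected group, and Rgs5, a pericyte gene, was called lower in IS (-1.83) and IS-HA (-1.40), with medians of 0.62, 1.18 and 0.80. Of 7 progenitor and cycling markers only Mki67 and Top2a, both of dividing cells, were called higher, at 3.44 and 3.57 in IS, and Dcx, of young neurons, was called lower in IS (-1.07), with medians of 0.48, 0.41 and 0.56. Of 10 striatal neuron markers, 0 were called higher, and 1 was called lower in IC, 9 in IS and 8 in IS-HA, with medians of -0.87, -1.61 and -1.70. Rbfox3, the nuclear protein NeuN, was the one called lower in IC.

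**Figure D5:**
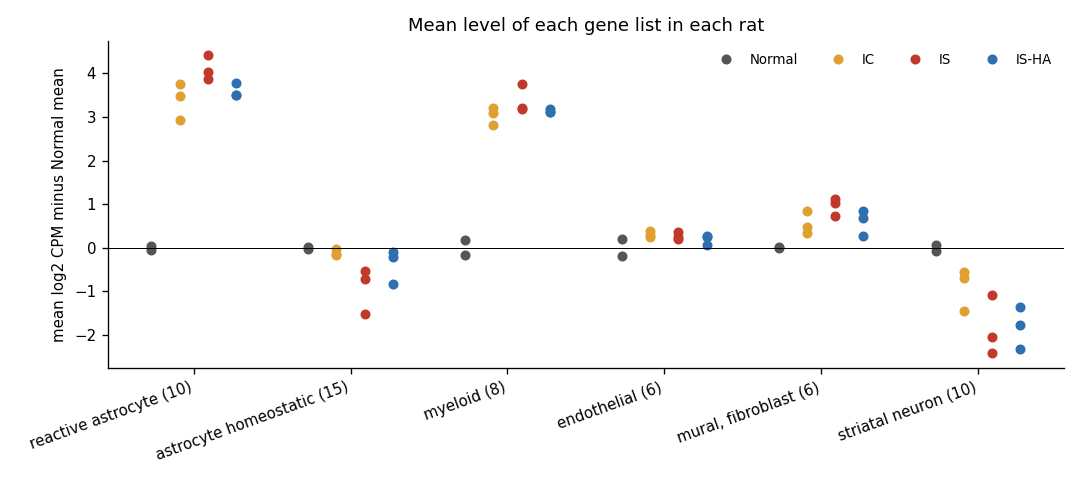
Mean log2 CPM of each gene list minus its mean in Normal, for each rat, with the number of genes in parentheses. The 10 reactive astrocyte genes lie at 2.94 to 4.41 in the injected rats and the myeloid markers rise with them, whereas the endothelial markers stay near 0 and the striatal neuron genes lie below it.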

How the data were processed

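RNA of the striatum, ipsilateral in the injected rats, was measured in 11 rats. The authors made stranded poly(A) libraries and sequenced paired-end reads, and the submitters' processing notes name fastp 0.20.0, HISAT2 2.1.0, SAMtools 1.9, featureCounts and the build mRatBN7.2, whereas the annotation version was not given in the sources used here. Unnormalized counts of reads per gene, as whole numbers, were deposited by the authors together with TPM, in which counts are divided by gene length and scaled per rat. Because TPM are shares of each rat's total, a rise of some genes lowers others.

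Counts were filtered with filterByExpr and normalized by TMM in edgeR 4.0.16 (R 4.3.3), and tested as stated above, with a common dispersion of 0.0691. Standard errors were approximated as the size of the log2 fold change over the root of the F statistic, and intervals used edgeR's degrees of freedom. The procedure was tested on simulated data. Alternatives were DESeq2 1.42.0 (size factors in edgeR, and its Wald test), library size alone, TMM without 18 hemoglobin and mitochondrial genes, limma 3.58.1 with trend on log2(TPM + 1), no filter, a minimum of 10 counts in all rats, a fit to the compared groups alone, the omission of single rats, the replicate number as a block, no fold cutoff and a log2 cutoff of 0.5. Correlations on log2(TPM + 1) were added after the data were seen.

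The 10 genes and the lists were chosen with earlier results of these data known. Beside the 10, the genes named were, from each list, up to 2 with the highest and up to 2 with the lowest log2 fold change in IS against Normal, the 5 genes most like Gfap, and the 3 most like Serpina3n. Aldh1l1, C3, Fbln5, Slc10a6, Tgm1, Osm, Il1b, Kcnj10, Dcn, Rbfox3, Has2, S1pr2 and Serpina3a, and the ratios of genes, fall outside this rule and were chosen after their values were seen. Promoters came from RefSeq, GRCr8, and plots from matplotlib 3.10.9.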

Additional observations from a re-analysis of the deposited data

How the results depend on the processing

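Over 22 alternatives, all 631 log2 fold changes of the 10 genes against Normal kept their direction, and 631 of 651 between injected groups. These totals include the settings without a fold cutoff and with a log2 cutoff of 0.5. Both reuse the main fit, so their values could not change direction. The number of genes called higher with 1 rat left out was 7 to 10 in IC, 9 to 10 in IS and 7 to 10 in IS-HA against Normal. With at least 10 counts in every rat, Serpina3n, Cd109 and Ptx3 were not tested. In IS against IC the Wald test of DESeq2 called 2 genes in place of 0. With 1 rat left out, the sign changed for 11 of the 30 estimates between injected groups. In IS-HA against IC they ranged from -0.10 to 0.53 for Vim, -0.00479 to 0.69 for Cd44, -0.19 to 0.45 for S1pr3, -0.14 to 0.62 for Emp1, -0.066 to 0.30 for Cd109, -0.18 to 0.068 for Ptx3 and -1.49 to 2.17 for Serpina3n, which was -1.49 without IS-HA replicate 2. In IS-HA against IS they ranged from -0.18 to 0.10 for Gfap, -0.12 to 0.27 for Steap4 and -2.74 to 0.65 for Serpina3n, and in IS against IC from -0.10 to 2.85 for Serpina3n, with the lowest value without IS replicate 2. Rats with the same number in different groups are different animals, and they did not deviate together (mean r 0.03 in IS and IC, -0.28 in IS-HA and IS, -0.16 in IS-HA and IC, -0.01 in IS-HA and Normal). With the replicate number as a block, possible except in IC and IS against Normal, 0 genes were called between injected groups and 10 of 10 in IS-HA against Normal. These fits hold only rats whose number both groups have, which leaves 4 rats and 1 residual degree of freedom in each comparison of IS-HA, so their calls say nothing about stability. The sign turned for S1pr3 (-0.13) and Cd109 (-0.020) in IS-HA against IC and for Steap4 (-0.049) in IS-HA against IS. In IS-HA against IS, without IS-HA replicate 1 and IS replicate 4 in that block fit, the values were -0.74 for Ptx3, -0.47 for Cd44, -0.34 for Emp1 and -0.037 for Nes. Low counts in Normal limit Serpina3n, Cd109 and Ptx3, and 2 Normal rats limit every comparison with them.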

Other observations

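The relatives and ligands of the 10 genes also moved. Of 13 tested genes on this list of 16, edgeR called 4 higher and 1 lower in IC against Normal, 8 higher and 1 lower in IS, and 5 higher and 1 lower in IS-HA, with median log2 fold changes of 0.82, 1.15 and 0.78. Spp1, which encodes osteopontin, a ligand of CD44, stood at 0.998 to 3.57 TPM in Normal, 1510 to 5705 TPM in IC, 6236 to 15430 TPM in IS and 3992 to 6145 TPM in IS-HA, with a log2 fold change of 12.08 in IS. Emp3, a relative of Emp1, had 5.12 in IS. Among the hyaluronan synthases, Has2 had 1.81 and Has3 fell by 5.04 on the log2 scale in IS, where Has3 stood at 0 to 0.24 TPM against 1.84 to 3.08 TPM in Normal. Among the listed sphingosine 1-phosphate receptors, S1pr2 had 2.17 in IS and was called higher in every injected group, while S1pr1 (-0.78) and S1pr5 (-0.44) were not called.

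Of the 5 other Serpina3 genes in the table, 4 had at most 2 counts in every rat. Serpina3a, chosen after its values were seen, had 0 counts in both Normal rats and 36 to 184 counts in the injected rats. Its highest rats were IS replicate 4 and IS-HA replicate 3, and its lowest were IS-HA replicate 2 and IS replicate 2, the rats that were highest for Serpina3n. How reads that fit several of these similar genes were assigned was not given in the sources used here, so the division between Serpina3n and Serpina3a is uncertain.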
